A study of Homo sapiens with 18 samples.

Results

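Mitochondrial ribosomal protein genes encode the proteins of the ribosome inside mitochondria. They were taken by symbol: MRPL followed by a number for the large subunit, MRPS followed by a number and at most a letter A to C for the small subunit, and DAP3, a small subunit protein, with pseudogenes left out. This gave 79 genes, 49 of the large and 30 of the small subunit, of the 16532 named genes in the H929 table and of the 57351 in each of the MM1S tables. The RNA immunoprecipitation (RIP) table held 77 of them among 20233 named genes. Symbols give the subunit apart from a few cases. MRPS18A and MRPS30 sit in the large subunit in the known structure, and MRPS36 is now assigned to the 2-oxoglutarate dehydrogenase complex.

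H929 and MM1S are established human multiple myeloma lines, each a single line grown in culture, and the study asked what RBM39 does in them. RBM39 binds RNA and takes part in splicing, and indisulam is an aryl sulfonamide that glues the protein to DCAF15, part of a ubiquitin ligase, so that it is degraded. Messenger RNA sequencing covered 16 libraries: 3 of MM1S treated with indisulam and 3 of MM1S with the solvent DMSO, 2 of MM1S with a short hairpin against RBM39 (shRBM39) and 2 with a scramble hairpin, and 3 of H929 labelled shRBM39 and 3 labelled scramble. RIP with an antibody to RBM39 and RIP with control IgG gave 1 library each from MM1S. Dose, time and hairpin sequence are unstated in the labels, and so is whether the 2 numbered MM1S shRBM39 libraries carry the same hairpin.

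Mitochondrial ribosomes translate the few messages encoded by mitochondrial DNA, all of them for membrane subunits of the respiratory chain and of ATP synthase. Their rRNAs are transcribed inside mitochondria, whereas every one of their proteins is encoded in the nucleus, translated in the cytosol and imported. The large subunit forms the peptide bond and holds the tunnel through which the new chain leaves, and the small subunit binds the message and decodes it. Many of the proteins have bacterial homologs, and others are found only in mitochondrial ribosomes.

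The promoters of these genes are shown for 6 members on which the results below turn. MRPL17 and MRPL27 had the largest differences with indisulam, MRPS9 and MRPS10 were higher with shRBM39 in MM1S, MRPS34 was called in opposite directions in H929 and with indisulam, and MRPL36 carries several of the motifs searched. Each line gives the 110 bases directly before the transcription start, 5′ to 3′ on the strand of the gene, from RefSeq promoters on GRCh38.p14. They lie at chr11:6683341-6683450 on the minus strand (MRPL17), chr17:50373185-50373294 minus (MRPL27), chr5:1799838-1799947 minus (MRPL36), chr16:1773135-1773244 minus (MRPS34), chr2:105037959-105038068 plus (MRPS9) and chr6:42217862-42217971 minus (MRPS10). Capitals mark a match on either strand to CCGGAAG (ETS factors such as GABPA), GCGC and TGCGC parted by any 1 base (NRF1), AAGATGGC (YY1) or CACGTG (the E-box that MYC and MAX can bind).
MRPL17: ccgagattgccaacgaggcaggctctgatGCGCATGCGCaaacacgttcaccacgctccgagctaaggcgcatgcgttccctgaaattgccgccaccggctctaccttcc
MRPL27: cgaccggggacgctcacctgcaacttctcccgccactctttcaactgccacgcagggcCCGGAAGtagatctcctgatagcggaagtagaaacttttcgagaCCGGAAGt
MRPL36: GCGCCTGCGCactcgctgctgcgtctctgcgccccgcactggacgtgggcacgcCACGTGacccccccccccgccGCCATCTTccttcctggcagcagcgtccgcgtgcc
MRPS34: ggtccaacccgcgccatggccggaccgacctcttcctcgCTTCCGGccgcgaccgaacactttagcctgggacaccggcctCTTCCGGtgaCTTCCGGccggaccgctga
MRPS9: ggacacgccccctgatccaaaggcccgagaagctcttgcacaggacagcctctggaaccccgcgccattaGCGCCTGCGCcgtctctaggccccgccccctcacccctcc
MRPS10: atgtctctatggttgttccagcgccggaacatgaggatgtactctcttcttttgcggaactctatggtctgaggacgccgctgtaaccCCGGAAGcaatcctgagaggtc
Capitals stand for the NRF1 motif in MRPL17 and MRPS9, and for the ETS motif in MRPL27, MRPS34 and MRPS10. In MRPL36 they stand for NRF1, then the E-box, then YY1.

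Across the 70 members with a promoter in the table, in windows of 250 bases before and 50 after the start, the ETS motif was present in 30 members (42.9%), against 16.5% of 15843 protein-coding genes and 12.2% of all 27305 genes listed. The YY1 motif was present in 21 members (30.0%), against 4.66% of protein-coding genes and 3.52% of all genes. NRF1 and E-box matches were each present in 9 members (12.9%), against 9.67% and 10.9% of protein-coding genes and 6.98% and 8.77% of all genes. These matches describe letters in a window, not bound sites. The start of another gene on the opposite strand lay within 1000 bases for 27 of the 70 members (38.6%), against 22.1% of protein-coding genes. In this way MRPL46 of the large subunit faces MRPS11 of the small subunit, MRPS12 faces SARS2, the mitochondrial seryl-tRNA synthetase gene, and MRPL49 faces FAU, which encodes a protein of the cytosolic ribosome.

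The H929 and RIP values are FPKM and the MM1S values TPM, units scaled for transcript length and library size. Differences are on the log2(value + 1) scale, and a gene was called when limma, fitted over all genes tested in that table, gave a Benjamini-Hochberg adjusted p below 0.05. Whether replicates came from separate cultures is not stated, so a p-value here measures the spread between these samples alone, and that spread may be technical. Relative to scramble replicate 1, depth in H929 was estimated at 0.975 to 1.147, and depth is unknown for MM1S and RIP. The estimate is the most frequent ratio between low FPKM values of 2 libraries, which 6.64% to 9.22% of the low genes shared. H929 and MM1S are labelled plasma cells, and all 8 plasma cell markers were above 0 in all 16 expression libraries. In H929 they summed to 7750 to 7877 FPKM in libraries labelled shRBM39 and 4798 to 4936 FPKM in those labelled scramble, beside 5 T cell markers at 15.7 to 18.5 and 39.3 to 47.1 FPKM and 5 myeloid markers at 13.4 to 14.7 and 25.1 to 26.9 FPKM. In libraries labelled shRBM39 2 or 3 of the 5 T cell markers were at 0, and in those labelled scramble none was. With indisulam and DMSO the plasma cell markers summed to 5667 to 6773 and 7225 to 7574 TPM, the T cell markers to 1.01 to 1.51 and 3.16 to 4.34 TPM and the myeloid markers to 7.22 to 8.31 and 9.51 to 10.6 TPM. With shRBM39 and scramble in MM1S they summed to 7291 to 8451 and 4448 to 6703 TPM, 0.98 to 1.69 and 4.73 to 5.76 TPM, and 7.58 to 11.8 and 17.1 to 22.2 TPM. The sums hide opposite directions within the 8 plasma cell markers. In H929 limma called 6 higher and 2 lower, where 72.2% of all genes tested were called. With indisulam it called 1 higher and 3 lower, where 29.9% were called. In the MM1S knockdown it called 0, with 4 positive and 4 negative differences. The part of these markers in the results was not tested.

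RBM39 transcript was 198 ± 42.1 TPM with indisulam and 188 ± 8.89 TPM with DMSO (mean ± SD, n = 3 each; log2 difference 0.05, limma adjusted p = 0.828), a value that says nothing of the protein. In the MM1S knockdown it was 58.5 ± 8.89 TPM with shRBM39 and 190.4 ± 20.01 TPM with scramble (n = 2 each; log2 difference -1.69, limma adjusted p = 0.0119). That call was lost without either scramble library or without shRBM39 replicate 2, with adjusted p up to 0.220, and with no filter on low values. In H929 it was 37.5 ± 1.65 FPKM in libraries labelled shRBM39 and 4.50 ± 0.0631 FPKM in those labelled scramble (n = 3 each; log2 difference 2.81, limma adjusted p = 7.68e-13), opposite to what the labels name. The H929 libraries are therefore called by their labels, and no direction there is read as an effect of knockdown.

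Within the MM1S DMSO libraries the members spanned from MRPS24 at 359 ± 15.3 TPM, MRPL53 at 266 ± 8.86 TPM and MRPL51 at 229 ± 7.90 TPM down to MRPS31 at 8.61 ± 0.449 and MRPL50 at 8.12 ± 0.610 TPM (n = 3). The order of the members by level was alike in the controls of both MM1S tables (Spearman's rho 0.842 over the 79 members) and less so between H929 scramble and MM1S DMSO (rho 0.621). These are descriptions over genes that share their libraries. DAP3, a GTP-binding protein first described in cell death, had the highest level in H929 scramble libraries, at 167 ± 5.07 FPKM. MRPS24, a small subunit protein near the message entry, had the highest level in MM1S DMSO libraries and the lowest in H929, at 0.0757, 0.0389 and 0.283 FPKM in libraries labelled shRBM39 and 0.261, 0.158 and 0.0891 FPKM in those labelled scramble. MRPS24 was the only member under the filter of at least 1 FPKM in H929, and the next lowest, MRPL42, passed it at 1.63 to 1.94 FPKM in libraries labelled shRBM39 and 1.99 to 2.34 FPKM in those labelled scramble (log2 difference -0.20, limma adjusted p = 0.0282), a call lost under both other scalings. MRPL23 ranked 73 of 79 in H929 scramble and 6 in MM1S DMSO, and MRPS33 ranked 72 and 13. In RefSeq the MRPS24 locus is overlapped by the readthrough gene URGCP-MRPS24, and 19 of 78 members listed there overlap another protein-coding gene. Whether counting used strand is not stated, so reads of such pairs may be shared.

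With indisulam the members called were lower, with 2 exceptions. Of the 79 members 40 were called lower and 2 higher with indisulam than with DMSO, where 21.5% of all 13421 genes tested were called lower, 8.47% higher and 29.9% either way. The large subunit had 26 lower and 1 higher of 49, and the small subunit 14 lower and 1 higher of 30. The median log2 difference was -0.38 in the large and -0.37 in the small subunit, against -0.05 over all genes tested. With MRPS18A and MRPS30 counted as large and MRPS36 left out, the medians were -0.33 in the large and -0.41 in the small subunit. A negative difference was seen in 70 of 79 members, and the groups did not overlap in 59 of 79, against 47.3% of all genes tested. In total RNA from a culture, less message per cell and fewer cells expressing it cannot be told apart.

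The summed level of the 79 members was 4289.9, 4273 and 4789 TPM in the indisulam libraries and 5687, 5955 and 5949.5 TPM in the DMSO libraries. All 3 indisulam libraries lay below all 3 DMSO libraries. Indisulam replicate 3 stood apart from its group over all genes, with a median log2 level of 3.06 where indisulam replicates 1 and 2 had 3.62 and 3.599 and DMSO libraries 3.399 to 3.47. Without it, 57 members were called lower and 7 higher, while 57.6% of all genes called were higher. Leaving out DMSO replicate 1, 2 or 3 left 24, 17 or 15 called lower and 0 higher, while 17.9%, 19.1% or 19.1% of all genes called were higher. Over the fits with a library left out the number of all genes called ran from 1849 to 9343. These member counts therefore stand on a background that moved as well. With every library scaled to the same median 19 were called lower and 1 higher, and with quantile normalization 19 lower and 5 higher. Over all genes these 2 scalings called 5541 and 5806, of which 46.7% and 52.1% were higher, where the main fit called 4019. Under both scalings the share of members called lower was thus near that of all genes. All 42 called members kept the sign of their difference in each of the settings tried, and 13 kept their call in each of them.

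**Figure D1:**
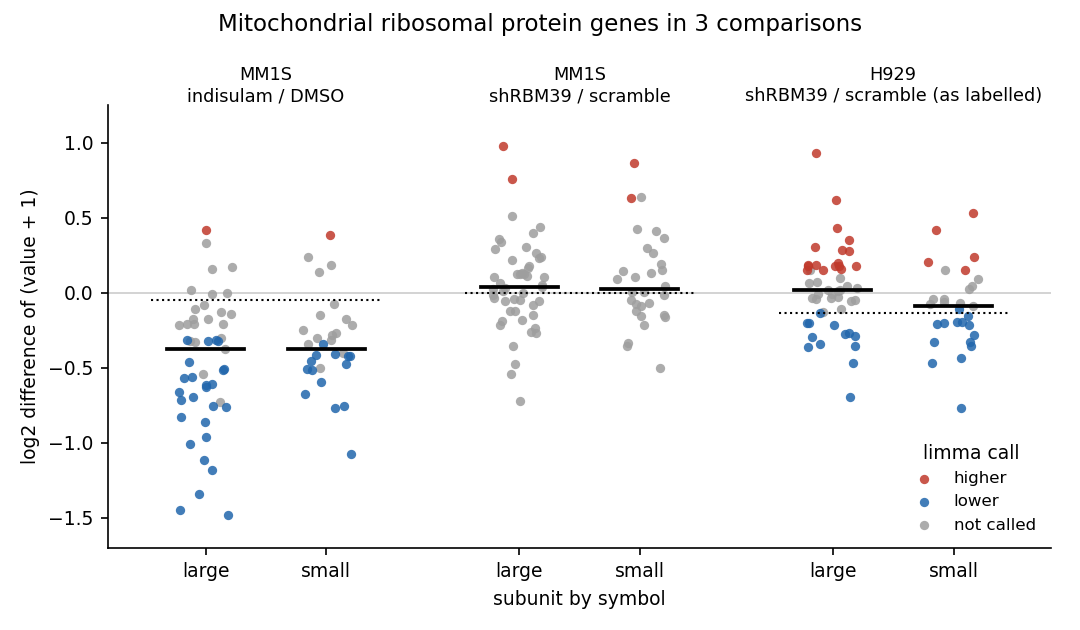
Each point is a mitochondrial ribosomal protein gene, placed by its log2 difference of value + 1 in 3 comparisons and by subunit, colored by its limma call; black bars are medians of the subunit and dotted lines the median of all genes tested. With indisulam both subunits, taken by symbol, sit below the dotted line, at -0.38 and -0.37, while with shRBM39 in MM1S 4 of 79 are called.

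MRPL17, whose bacterial homolog lies at the rim of the exit tunnel, showed the largest difference with indisulam. It was 10.4, 15.2 and 17.4 TPM with indisulam and 39.2, 43.0 and 41.0 TPM with DMSO. The groups were far apart, and MRPL17 fell by 1.48 on the log2 scale (SE 0.190, limma adjusted p = 0.00168). MRPL27, whose bacterial homolog reaches into the peptidyl transferase centre, was 30.6, 32.4 and 33.9 TPM with indisulam and 83.8, 92.8 and 92.9 TPM with DMSO. The libraries of each group lay close together, and MRPL27 fell by 1.45 (SE 0.0987, limma adjusted p = 1.65e-04). MRPL16, which contacts the tRNA arm next to that centre, was 40.6, 47.7 and 37.5 TPM with indisulam and 89.6, 91.6 and 93.1 TPM with DMSO, and it fell by 1.11 (SE 0.112, limma adjusted p = 6.55e-04). All 3 kept their calls in every setting tried.

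MRPL11 forms the base of the stalk that receives elongation factors. It was 25.8, 28.6 and 39.2 TPM with indisulam and 69.4, 72.1 and 71.1 TPM with DMSO, and it fell by 1.18 (SE 0.159, limma adjusted p = 0.00205). Its partner in the stalk, MRPL12, was 70.5, 78.4 and 116 TPM with indisulam and 135, 145 and 146 TPM with DMSO, with no overlap and a wide spread in the indisulam group. MRPL12 fell by 0.71 (SE 0.180, limma adjusted p = 0.0237), a call that was lost without indisulam replicate 1 or 2, without any DMSO library, with no filter on low values and under both other scalings, with adjusted p up to 0.168. MRPL10, which joins MRPL12 to the ribosome, was 32.6 ± 4.90 TPM with indisulam and 28.8 ± 0.124 TPM with DMSO (n = 3 each; log2 difference 0.16, limma adjusted p = 0.412).

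Proteins found only in mitochondrial ribosomes were also among the largest falls. MRPL39, which resembles threonyl-tRNA synthetases, was 8.57, 8.01 and 5.63 TPM with indisulam and 19.3, 18.8 and 22.2 TPM with DMSO, and it fell by 1.34 (SE 0.187, limma adjusted p = 0.00232). MRPL37 was 50.2, 45.9 and 52.7 TPM with indisulam and 99.2, 100.4 and 102 TPM with DMSO, and it fell by 1.01 (SE 0.0922, limma adjusted p = 4.81e-04). MRPL51, among the most abundant members, was 102, 113 and 139 TPM with indisulam and 223, 238 and 225 TPM with DMSO, and it fell by 0.96 (SE 0.121, limma adjusted p = 0.00158). None of the 3 overlapped between groups. By class, limma called 13 of 32 mitochondria-specific members lower and 0 higher (21 and 0 at an unadjusted p under 0.05), beside 27 lower and 2 higher of 46 members with bacterial homologs, with medians of -0.32 and -0.42.

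In the small subunit MRPS16, a protein of the subunit body whose loss causes mitochondrial disease in people, had the largest fall. It was 22.4, 21.3 and 14.9 TPM with indisulam and 39.4, 38.4 and 47.7 TPM with DMSO, and it fell by 1.07 (SE 0.181, limma adjusted p = 0.00502). MRPS34, required to keep the small subunit stable, was 113, 105 and 155 TPM with indisulam and 193, 218 and 211 TPM with DMSO, and it fell by 0.76 (SE 0.150, limma adjusted p = 0.00960). MRPS12, at the decoding centre, was 49.2 ± 6.34 TPM with indisulam and 74.3 ± 3.13 TPM with DMSO (log2 difference -0.59, limma adjusted p = 0.00934), and DAP3 was 115 ± 8.03 TPM with indisulam and 146 ± 2.55 TPM with DMSO (-0.34, limma adjusted p = 0.0214). MRPS34, MRPS12 and DAP3 lost their calls under both other scalings, with adjusted p up to 0.107, 0.117 and 0.597, and also without DMSO replicate 3.

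The 3 paralogs of bacterial S18 were 50.6 ± 1.73 (MRPS18C), 46.9 ± 2.34 (MRPS18B) and 37.5 ± 3.398 TPM (MRPS18A) with indisulam, against 67.5 ± 4.06, 55.8 ± 2.02 and 46.8 ± 2.83 TPM with DMSO. Of these MRPS18C was called lower (log2 difference -0.41, limma adjusted p = 0.0172), and MRPS18B and MRPS18A were not (limma adjusted p = 0.0918 and 0.0769). MRPL58, a peptidyl-tRNA hydrolase that became part of the ribosome, was 25.1 ± 3.12 TPM with indisulam and 37.6 ± 3.26 TPM with DMSO (-0.57, limma adjusted p = 0.0186). MRPL40 was 30.1 ± 1.56 TPM with indisulam and 43.5 ± 3.04 TPM with DMSO (-0.52, limma adjusted p = 0.0119), and MRPL36 was 83.9 ± 4.09 TPM with indisulam and 104 ± 2.09 TPM with DMSO (-0.31, limma adjusted p = 0.0273). The facing pair MRPL46 and MRPS11 was lower together, MRPL46 at 17.6 ± 2.14 TPM with indisulam and 29.1 ± 2.90 TPM with DMSO (-0.70, limma adjusted p = 0.0111) and MRPS11 at 42.6 ± 2.07 TPM with indisulam and 61.4 ± 2.13 TPM with DMSO (-0.52, limma adjusted p = 0.00685). The calls of MRPS18C, MRPL58, MRPL40, MRPL36 and MRPS11 were lost under both other scalings, with adjusted p up to 0.555, and without DMSO replicate 2 or 3. The MRPL46 call held under the scalings and was lost without DMSO replicate 2 or 3, with adjusted p up to 0.0724.

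Not every member moved down. MRPL1, which carries the stalk where spent tRNA leaves, was 42.4, 43.3 and 52.2 TPM with indisulam and 34.5, 33.6 and 33.8 TPM with DMSO, and it rose by 0.42 (SE 0.117, limma adjusted p = 0.0328). MRPS5, a homolog of a bacterial protein of decoding accuracy, was 103, 98.6 and 87.8 TPM with indisulam and 72.7, 74.1 and 73.6 TPM with DMSO, and it rose by 0.39 (SE 0.0933, limma adjusted p = 0.0200). Both calls were lost when any DMSO library or indisulam replicate 2 was left out, with adjusted p up to 0.132 and 0.0936, while the differences stayed positive. The MRPL1 call was also lost under median scaling (adjusted p = 0.163) and with no filter, and the MRPS5 call without indisulam replicate 1. Both were lost too with limma without its trend and robust options, and with same-numbered libraries as a block. MRPL3, MRPL41, MRPL44, MRPL57, MRPS22 and MRPS36 were not called. MRPL41 shows the spread behind such a result, at 60.9, 58.9 and 113 TPM with indisulam and 101, 112 and 112 TPM with DMSO: indisulam replicate 3 lay above all DMSO libraries and replicates 1 and 2 well below them.

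**Figure D2:**
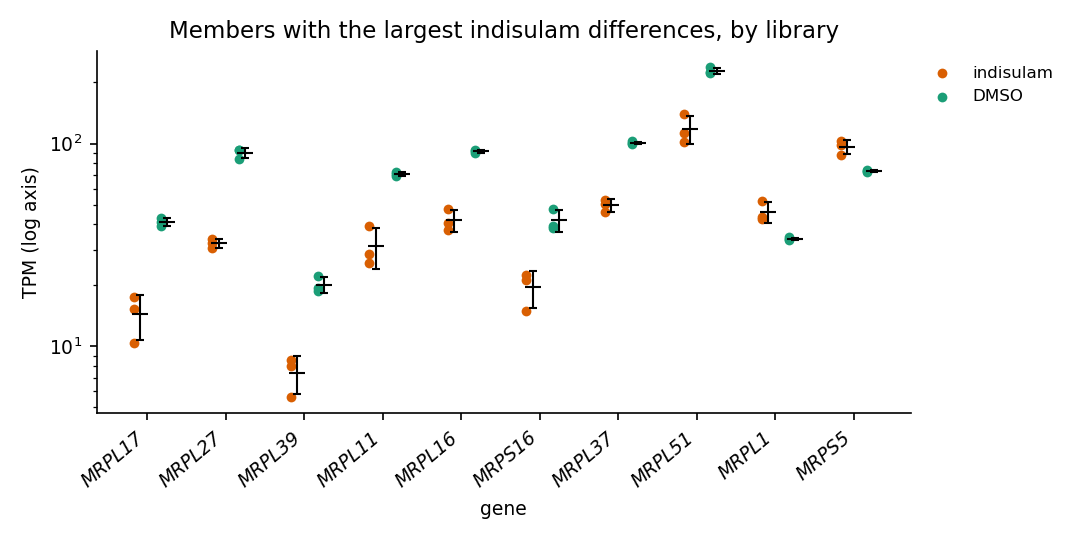
TPM on a log axis in each library for the 8 members with the largest falls and the 2 called higher with indisulam; points are libraries, and bars show the mean ± SD (n = 3). The 8 falls show no overlap, for example 10.4 to 17.4 TPM with indisulam and 39.2 to 43.0 TPM with DMSO for MRPL17.

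Within a library the large subunit members were on average above the small subunit ones. By symbol, the mean log2 level of large minus small was 0.11, 0.12 and 0.25 with indisulam and 0.31, 0.27 and 0.27 with DMSO. All 3 indisulam values lay below the DMSO values, with replicate 3 the nearest. In the MM1S knockdown it was 0.14 and 0.10 with shRBM39 and 0.12 and 0.17 with scramble, which overlap. In H929 it was 0.48, 0.47 and 0.46 in libraries labelled shRBM39 and 0.36, 0.35 and 0.37 in those labelled scramble, with no overlap. This balance was not computed by place in the structure. By that place the median log2 difference with indisulam was -0.33 in the large and -0.41 in the small subunit, so the small was the lower. In H929 it was 0.01 and -0.12.

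**Figure D3:**
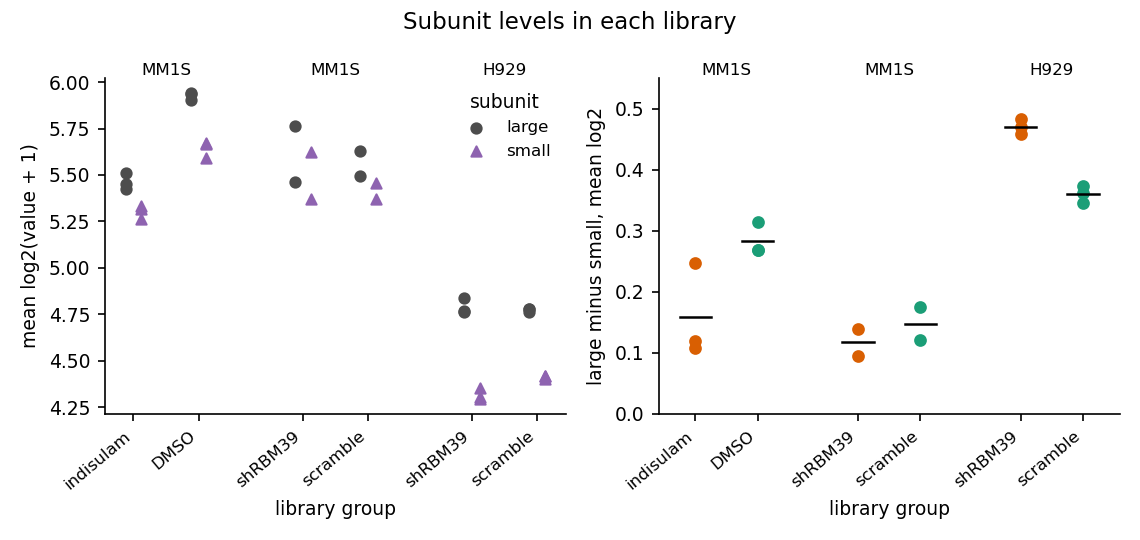
Left, mean log2(value + 1) of large and small subunit members, by symbol, in each of 16 libraries. Right, the difference of the 2 means, with a bar at the group mean. The indisulam libraries lie at 0.11 to 0.25 and the DMSO libraries at 0.27 to 0.31, while the H929 libraries labelled shRBM39 lie at 0.46 to 0.48 and those labelled scramble at 0.35 to 0.37.

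Some genes that build and serve the mitochondrial ribosome were also called lower with indisulam, and most genes of each list were not called. The share called either way was 26.9% for assembly and rRNA modification, 25% for translation factors and 11.1% for mitochondrial DNA genes. These were below the 29.9% of all genes tested, and the 35.3% for synthetases was above it. Every call in the assembly, synthetase and mitochondrial DNA lists was lower, where 21.5% of all genes tested were called lower. Against that share assembly and synthetases were above, and mitochondrial DNA genes below. Of 26 genes of assembly and rRNA modification limma called 7 lower and 0 higher (12 and 1 at an unadjusted p under 0.05). MTG1, a GTPase of large subunit assembly, was 8.78 ± 0.857 TPM with indisulam and 37.4 ± 3.402 TPM with DMSO (n = 3 each) and fell by 1.97 (limma adjusted p = 1.90e-04), more than any member. C1QBP was 128 ± 7.46 TPM with indisulam and 201 ± 6.75 TPM with DMSO (-0.65, limma adjusted p = 0.00148), and MRM2, an rRNA methyltransferase, 12.6 ± 0.0929 TPM with indisulam and 23.8 ± 1.32 TPM with DMSO (-0.86, limma adjusted p = 0.00261). Among 17 mitochondrial aminoacyl-tRNA synthetases limma called 6 lower and 0 higher (9 and 0 unadjusted), including CARS2 at 30.0 ± 2.18 TPM with indisulam and 55.7 ± 0.235 TPM with DMSO (-0.87, limma adjusted p = 0.00114). Of 16 translation factors 3 were lower and 1 was higher. TSFM, the exchange factor of the elongation factor TUFM, was 24.5 ± 3.09 TPM with indisulam and 45.3 ± 2.86 TPM with DMSO (-0.87, limma adjusted p = 0.00313). SSBP1, which binds single-stranded mitochondrial DNA, was the gene called of 9 for mitochondrial DNA and transcription, at 203 ± 10.2 TPM with indisulam and 411 ± 9.47 TPM with DMSO (-1.01, limma adjusted p = 1.97e-04). Outside the symbol rule 4 ribosome subunits were listed, of which CHCHD1 was lower, at 50.1 ± 0.765 TPM with indisulam and 75.1 ± 3.54 TPM with DMSO (-0.57, limma adjusted p = 0.00349), a call lost under quantile normalization (adjusted p = 0.0515).

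The values of the rRNAs on which these proteins assemble went the other way. The libraries were made with an mRNA kit. Whether these values, here and in the knockdown below, follow the amount of rRNA was not tested. MT-RNR2, the large subunit rRNA, was 7197 ± 647 TPM with indisulam and 3736 ± 446 TPM with DMSO (n = 3 each; log2 difference 0.95, limma adjusted p = 0.00125). MT-RNR1, the small subunit rRNA, was 1719.98 ± 91.8 TPM with indisulam and 1151 ± 102 TPM with DMSO (0.58, limma adjusted p = 0.00375), a call lost under median scaling (adjusted p = 0.0749). Of 15 mitochondrially encoded genes 3 were called higher, the rRNAs and MT-CO1, and 3 lower, among them MT-CYB at 1856 ± 134 TPM with indisulam and 2796 ± 431 TPM with DMSO (-0.58, limma adjusted p = 0.0118). Under median scaling MT-RNR2 alone of the 15 remained called, higher. Of 10 regulators known for nuclear genes of mitochondria 2 were lower and 2 higher. MYC was 99.6 ± 14.2 TPM with indisulam and 163 ± 7.65 TPM with DMSO (-0.72, limma adjusted p = 0.00413) and PPRC1 15.8 ± 1.15 TPM with indisulam and 22.7 ± 1.12 TPM with DMSO (-0.50, limma adjusted p = 0.0241), while ESRRA was 47.4 ± 3.33 TPM with indisulam and 33.8 ± 2.84 TPM with DMSO (0.48, limma adjusted p = 0.0194). The PPRC1 and ESRRA calls were lost without any one DMSO library. Proteins of the cytosolic ribosome were called lower in 2 and higher in 8 of 78, where 21.5% and 8.47% of all genes tested were.

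Among members with an ETS motif in the promoter 17 of 30 were called lower with indisulam, beside 21 of 40 without it, and the medians were -0.49 and -0.37. With and without the YY1 motif the counts were 8 of 21 and 30 of 49, with medians of -0.31 and -0.47. For NRF1 they were 3 of 9 and 35 of 61, and for the E-box 5 of 9 and 33 of 61. These splits were not tested.

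In the MM1S knockdown few members were called. With shRBM39 limma called 4 of 79 higher and 0 lower (10 and 3 at an unadjusted p under 0.05), where 4.03% of all 14122 genes tested were called higher, 6.38% lower and 10.4% either way. The share of members called, 5.06%, was below that background. The groups did not overlap in 34 of 79 members, against 62.4% of all genes tested. The median log2 difference was 0.04 in the large and 0.02 in the small subunit, against -0.00053 over all genes. The summed level was 4999 and 4137 TPM with shRBM39 and 4199 and 4557 TPM with scramble, so the groups overlapped and the 2 shRBM39 libraries lay on either side of the scramble libraries.

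MRPL18, which binds 5S rRNA in bacteria, was 48.2 and 39.1 TPM with shRBM39 and 20.6 and 22.6 TPM with scramble, which differ by 0.98 in log2 (SE 0.158, limma adjusted p = 0.0276). MRPL24, at the exit tunnel, was 147 and 125 TPM with shRBM39 and 77.6 and 82.2 TPM with scramble, which differ by 0.76 in log2 (SE 0.137, limma adjusted p = 0.0344). Neither overlapped between groups. MRPS9, of the small subunit head, was 32.8 and 34.2 TPM with shRBM39 and 17.6 and 18.4 TPM with scramble (0.86, SE 0.130, limma adjusted p = 0.0240). MRPS10, its neighbour in the head, was 29.6 and 30.2 TPM with shRBM39 and 18.3 and 19.7 TPM with scramble (0.63, SE 0.132, limma adjusted p = 0.0467). In both the libraries of a group lay close together and the groups apart. None of the 4 calls held when any library of either group was left out, with adjusted p of 0.0576 to 0.323 over the 4 genes, nor with no filter on low values. Their differences stayed positive there, at 0.58 to 1.12.

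No negative difference in the knockdown was called, and 3 of the larger ones are given here, chosen after their values were seen. MRPL37 was 67.1 and 51.6 TPM with shRBM39 and 95.3 and 100.5 TPM with scramble (log2 difference -0.72, limma adjusted p = 0.0528). MRPL39 was 17.8 and 18.0 TPM with shRBM39 and 27.2 and 25.9 TPM with scramble (-0.54, limma adjusted p = 0.0611), and MRPL51 was 146.5 and 130.2 TPM with shRBM39 and 191 and 194 TPM with scramble (-0.47, limma adjusted p = 0.0675). The groups of all 3 were apart, and MRPL37 was called lower with a filter at 5 TPM, under both other scalings and without shRBM39 replicate 1 (adjusted p = 0.0488). The 2 shRBM39 libraries differed widely in MRPL41, at 65.2 and 22.2 TPM with scramble at 25.3 and 27.7 TPM, and in MRPL12, at 116 and 58.9 TPM with scramble at 86.5 and 102 TPM. Whether those libraries carry different hairpins was not tested.

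MRPL18 and MRPL24 were the members called in both MM1S comparisons, higher with shRBM39 and lower with indisulam. With indisulam MRPL18 was 35.3, 36.9 and 32.7 TPM, against 53.2, 53.6 and 54.3 TPM with DMSO (log2 difference -0.61, limma adjusted p = 0.00415). MRPL24 was 79.3, 87.1 and 106 TPM with indisulam and 128, 136 and 136 TPM with DMSO (-0.56, limma adjusted p = 0.0125), a call lost under both other scalings, with adjusted p up to 0.175, and without DMSO replicate 2 or 3. The 2 MM1S tables were normalized apart and share no library. Over the 79 members the log2 differences of the 2 MM1S comparisons had a Pearson's r of 0.337 and a Spearman's rho of 0.301, given as a description across genes.

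Of 17 synthetases HARS2, the histidyl-tRNA synthetase, was higher, at 35.1 ± 2.06 TPM with shRBM39 and 19.9 ± 1.53 TPM with scramble (n = 2 each; log2 difference 0.79, limma adjusted p = 0.0324). Of 16 translation factors MTIF3 was higher, at 34.3 ± 2.31 TPM with shRBM39 and 18.4 ± 3.104 TPM with scramble (0.87, limma adjusted p = 0.0396), and GFM2 lower. Among 26 assembly genes limma called 0, with 1 higher and 2 lower at an unadjusted p under 0.05. Among 9 mitochondrial DNA genes and 10 regulators it also called 0, with 1 and 2 higher unadjusted. Of the 15 mitochondrially encoded genes limma called 1 higher and 1 lower. MT-RNR2, the large rRNA, was higher, at 10936 ± 152 TPM with shRBM39 and 8194 ± 278 TPM with scramble (0.42, limma adjusted p = 0.0390), and MT-ND4L, a subunit of respiratory complex I, was lower, at 2143 ± 332 TPM with shRBM39 and 3411 ± 80.1 TPM with scramble (-0.68, limma adjusted p = 0.0393). None of these calls held with either scramble library left out.

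**Figure D4:**
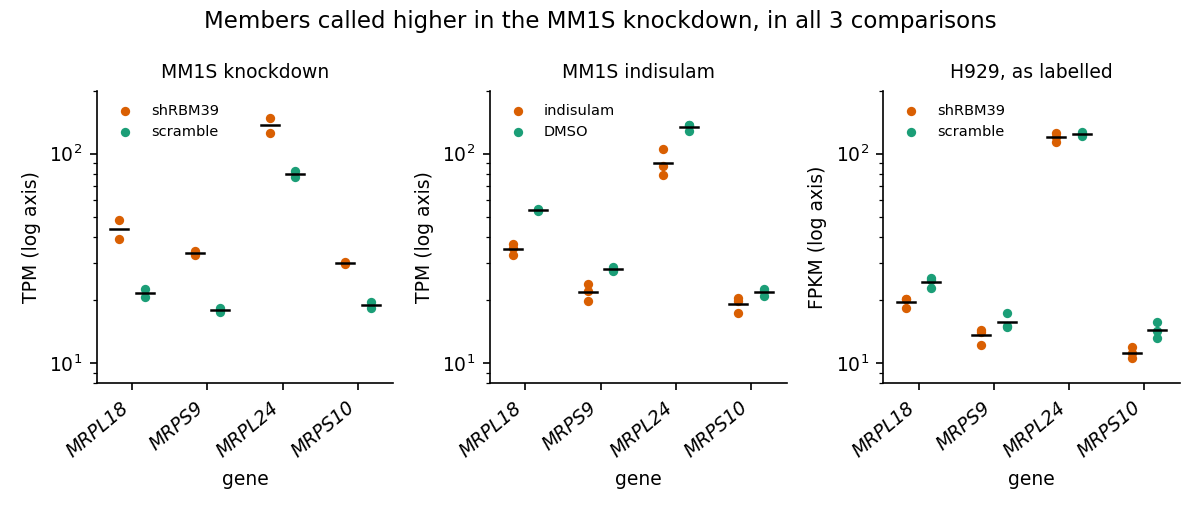
Values on a log axis of the 4 members called higher in the MM1S knockdown, in each library of the 3 comparisons; points are libraries and bars group means. MRPL18 sits at 39.1 and 48.2 TPM with shRBM39 and 20.6 and 22.6 TPM with scramble in MM1S, but lower with indisulam than with DMSO, and lower in the H929 libraries labelled shRBM39.

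In H929 the members moved both ways. Of 78 tested, 22 were called higher and 27 lower in libraries labelled shRBM39 than in those labelled scramble, where 24.1% of all 10360 genes tested were called higher, 48.1% lower and 72.2% either way. The large subunit had 17 higher and 13 lower of 49, and the small subunit 5 higher and 14 lower of 29. The median difference was 0.02 in the large and -0.09 in the small subunit, against -0.13 over all genes tested, and the groups did not overlap in 50 of 78 members, against 74.7% of all genes. Relative to the median of all genes the medians were 0.15 and 0.05. With libraries scaled to the same median 39 members were called higher and 11 lower. With quantile normalization 33 were higher and 16 lower, so the balance of the 2 directions changes with scaling. The same held over all genes, where these scalings called 7244 and 7187, with 54.3% and 49.6% of them higher. At equal medians the large subunit had 30 higher and 5 lower and the small subunit 9 higher and 6 lower. A call held in every setting in which the member was tested for 24 of the 49 called members.

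The members summed to 2930.4, 2762 and 2768 FPKM in libraries labelled shRBM39 and 2827, 2804 and 2796 FPKM in those labelled scramble, which overlap. As a share of all FPKM they were 0.685%, 0.675% and 0.667% against 0.755%, 0.748% and 0.746%, which do not. Proteins of the cytosolic ribosome were called higher in 76 of 77, where 24.1% of all genes tested were. Median scaling gave 77 higher and 0 lower, and quantile normalization 49 higher and 8 lower.

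MRPL10, the anchor of the stalk, had the largest difference in H929. It was 46.5, 44.5 and 47.0 FPKM in libraries labelled shRBM39 and 23.8, 24.3 and 22.8 FPKM in those labelled scramble, which differ by 0.93 in log2 (SE 0.0470, limma adjusted p = 2.04e-09). MRPL11 beside it was 16.7, 12.75 and 14.2 FPKM under the shRBM39 label and 8.87, 9.92 and 8.52 FPKM under the scramble label (0.62, SE 0.0857, limma adjusted p = 2.60e-05). MRPL12 of the same stalk was 117 ± 3.13 FPKM under the shRBM39 label and 111 ± 6.77 FPKM under the scramble label and was not called (0.07, limma adjusted p = 0.208). MRPS16 was 29.8, 29.5 and 29.7 FPKM in libraries labelled shRBM39 and 19.8, 20.5 and 20.4 FPKM in those labelled scramble (0.53, SE 0.0456, limma adjusted p = 2.69e-07), with hardly any spread within a group. MRPS34 was 146, 125 and 135 FPKM under the shRBM39 label and 106, 98.0 and 98.2 FPKM under the scramble label (0.42, SE 0.0543, limma adjusted p = 1.34e-05). MRPL49 was 38.1 ± 0.740 FPKM under the shRBM39 label and 28.0 ± 0.369 FPKM under the scramble label (0.43, limma adjusted p = 1.44e-06), MRPL53 136 ± 17.9 FPKM under the shRBM39 label and 105 ± 1.31 FPKM under the scramble label (0.35, limma adjusted p = 9.41e-04), MRPL17 26.1 ± 1.75 FPKM under the shRBM39 label and 20.9 ± 0.939 FPKM under the scramble label (0.31, limma adjusted p = 3.38e-04) and MRPL2, a protein of the catalytic core, 34.9 ± 1.58 FPKM under the shRBM39 label and 28.6 ± 2.17 FPKM under the scramble label (0.28, limma adjusted p = 7.12e-04). All 8 higher members named here kept their calls in every setting.

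Of the lower members MRPS28, a small subunit protein related to bacterial S1, was 1.96, 2.29 and 3.70 FPKM in libraries labelled shRBM39 and 4.77, 5.34 and 5.18 FPKM in those labelled scramble (-0.77, SE 0.141, limma adjusted p = 5.57e-04). MRPL1 was 7.22, 5.79 and 6.80 FPKM under the shRBM39 label and 12.8, 10.4 and 10.8 FPKM under the scramble label (-0.70, SE 0.0861, limma adjusted p = 8.69e-06). MRPL27 was 41.65, 36.6 and 39.1 FPKM under the shRBM39 label and 57.2, 52.0 and 54.6 FPKM under the scramble label (-0.47, SE 0.0544, limma adjusted p = 4.40e-06). None of the 3 overlapped between the groups. The others with the largest lower values were the mitochondria-specific proteins MRPS31 at 7.05 ± 0.289 FPKM under the shRBM39 label and 10.1 ± 0.652 FPKM under the scramble label (-0.47, limma adjusted p = 2.00e-05), MRPS35 at 8.99 ± 0.516 FPKM under the shRBM39 label and 12.5 ± 0.6253 FPKM under the scramble label (-0.43, limma adjusted p = 3.13e-05) and MRPL41 at 78.0 ± 2.10 FPKM under the shRBM39 label and 100.5 ± 1.62 FPKM under the scramble label (-0.36, limma adjusted p = 2.82e-06), and MRPL30 at 6.61 ± 0.418 FPKM under the shRBM39 label and 8.73 ± 0.233 FPKM under the scramble label (-0.36, limma adjusted p = 1.90e-04) and MRPS5 at 29.1 ± 1.83 FPKM under the shRBM39 label and 37.5 ± 0.388 FPKM under the scramble label (-0.35, limma adjusted p = 3.51e-05). These 8 also kept their calls in every setting in which they were tested. MRPS28 fell under the filter at 5 FPKM and was not tested there.

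Smaller H929 differences depended more on scaling. DAP3 was 143 ± 5.75 FPKM in libraries labelled shRBM39 and 167 ± 5.07 FPKM in those labelled scramble (-0.22, limma adjusted p = 5.04e-04), and MRPL3, mutated in a mitochondrial heart disease, 41.3 ± 1.31 FPKM under the shRBM39 label and 48.1 ± 2.30 FPKM under the scramble label (-0.21, limma adjusted p = 0.00143). Under median scaling neither was called, with adjusted p of 0.309 and 0.376. MRPL44, also mutated in heart disease, was 17.1 ± 0.415 FPKM under the shRBM39 label and 21.96 ± 1.38 FPKM under the scramble label (-0.34, limma adjusted p = 9.41e-05) and kept its call in every setting. MRPS22 was 22.7 ± 2.21 FPKM under the shRBM39 label and 27.7 ± 0.782 FPKM under the scramble label (-0.28, limma adjusted p = 0.00130), a call lost under both other scalings. MRPL40 at 37.8 ± 0.732 FPKM under the shRBM39 label and 33.4 ± 0.783 FPKM under the scramble label (0.17, limma adjusted p = 0.00317) and MRPL36 at 38.7 ± 1.60 FPKM under the shRBM39 label and 34.1 ± 1.51 FPKM under the scramble label (0.18, limma adjusted p = 0.00615) were higher. MRPS12 at 73.8 ± 2.82 FPKM under the shRBM39 label and 66.5 ± 4.19 FPKM under the scramble label (0.15, limma adjusted p = 0.0171) was called higher but not without scramble replicate 1 or 3 or shRBM39 replicate 1, with adjusted p up to 0.0896, nor with no filter. MRPS18A, MRPS18B, MRPS18C, MRPL57, MRPL58 and MRPS36 were not called in H929, nor was any of the 6 called in the MM1S knockdown.

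The H929 pathway lists stand beside 48.1% of all genes tested called lower and 24.1% higher. Assembly and rRNA modification had 13 lower and 1 higher of 26, with a median difference of -0.14, near the -0.13 over all genes tested. It was led by ERAL1, a chaperone of the small subunit rRNA, at 23.6 ± 1.41 FPKM under the shRBM39 label and 34.7 ± 0.657 FPKM under the scramble label (n = 3 each; -0.54, limma adjusted p = 7.78e-07). With libraries scaled to the same median that list had 7 lower and 5 higher. Synthetases had 9 lower and 6 higher of 17, and 5 lower and 7 higher under median scaling and also under quantile normalization, with IARS2 higher at 30.8 ± 0.260 FPKM under the shRBM39 label and 21.8 ± 0.764 FPKM under the scramble label (0.48, limma adjusted p = 9.66e-07) and RARS2 lower at 7.23 ± 0.622 FPKM under the shRBM39 label and 11.5 ± 0.984 FPKM under the scramble label (-0.60, limma adjusted p = 7.75e-06). Translation factors had 6 lower and 3 higher of 16, and at equal medians 2 lower and 8 higher. GFM1, elongation factor G, was 12.0 ± 0.371 FPKM under the shRBM39 label and 7.98 ± 0.270 FPKM under the scramble label (0.53, limma adjusted p = 2.17e-06). Of 8 mitochondrial DNA genes tested 4 were lower and 0 higher, where 48.1% of all genes tested were lower. Under median scaling that list had 3 lower and 4 higher, and under quantile normalization 3 lower and 3 higher. Those lower included the polymerase gene POLG at 22.7 ± 1.802 FPKM under the shRBM39 label and 31.99 ± 1.26 FPKM under the scramble label (-0.48, limma adjusted p = 8.75e-06). Of 10 regulators 4 were lower and 3 higher, and 2 lower and 4 higher under both other scalings. ESRRA, a nuclear receptor that acts with the PGC-1 coactivators on genes of mitochondria, was 21.5 ± 0.826 FPKM under the shRBM39 label and 50.4 ± 0.443 FPKM under the scramble label (-1.19, limma adjusted p = 2.17e-10). In MM1S ESRRA was higher with indisulam, as given above.

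Set side by side, 16 of the 22 members higher in H929 libraries labelled shRBM39 were lower with indisulam in MM1S. So were 8 of the 27 members lower in H929, and 40 of the 79 members in all. The like counts over all genes were not made. Of the 16, MRPL14, MRPL36, MRPL40, MRPL53, MRPS6, MRPS12 and MRPS34 lost the indisulam call under both other scalings. Of the 8, DAP3, MRPL20, MRPL54, MRPS2 and MRPS7 lost it as well. MRPL1 and MRPS5, the 2 members higher with indisulam, were lower in the H929 libraries labelled shRBM39. MRPL18, MRPS9 and MRPS10, 3 of the 4 members higher in the MM1S knockdown, were also lower there. MRPL18 was 19.6 ± 1.12 FPKM under the shRBM39 label and 24.3 ± 1.37 FPKM under the scramble label in H929 (-0.30, limma adjusted p = 4.69e-04), MRPS10 11.2 ± 0.681 FPKM under the shRBM39 label and 14.3 ± 1.29 FPKM under the scramble label (-0.33, limma adjusted p = 8.76e-04) and MRPS9 13.6 ± 1.12 FPKM under the shRBM39 label and 15.8 ± 1.41 FPKM under the scramble label (-0.20, limma adjusted p = 0.0227). The MRPL18 and MRPS9 calls were lost under median scaling and the MRPS9 and MRPS10 calls under quantile normalization. MRPS9 was also not called without scramble replicate 1 or shRBM39 replicate 3 (adjusted p up to 0.124). Across 78 members the H929 differences had a Pearson's r of -0.362 with those of the MM1S knockdown and -0.281 with those of indisulam. RBM39 itself differed in opposite directions in H929 and the MM1S knockdown.

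In the RIP most members gave lower values with the RBM39 antibody than with IgG. There was 1 library of each, so no test was made and no spread is known, and a ratio is log2 of (RBM39 FPKM + 1) over (IgG FPKM + 1). Of 77 members 4 had a ratio of at least 1 and 33 a ratio of at most -1, where 22.6% and 23.9% of 10946 genes were past these limits. The large subunit had 2 and 18 of 47, and the small subunit 2 and 15 of 30. The median ratio was -0.88 over the members, -0.81 in the large and -1 in the small subunit, and 0.02 over all genes. Over 5261 genes within the 10 to 90% range of the members' IgG levels the median was -0.24, and 27.8% were at most -1. The ratios are not scaled for the column totals, 481945 FPKM with the RBM39 antibody and 653238.5 FPKM with IgG. As a share of all FPKM the members were 0.772% with the RBM39 antibody and 0.765% with IgG.

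The highest ratios were in small subunit proteins found only in mitochondria. MRPS25 was 108 FPKM with the RBM39 antibody and 29.0 FPKM with IgG, a ratio of 1.86, and MRPS26 was 231 FPKM with the RBM39 antibody and 82.7 FPKM with IgG, a ratio of 1.47. They were followed by the large subunit genes MRPL37 at 195 FPKM with the RBM39 antibody and 86.2 FPKM with IgG (1.16), MRPL28 at 28.7 FPKM with the RBM39 antibody and 13.3 FPKM with IgG (1.05) and MRPL38 at 88.0 FPKM with the RBM39 antibody and 44.8 FPKM with IgG (0.96). MRPL37, MRPS26 and MRPS25 were also called lower with indisulam. The MRPS26 call was lost under both other scalings and when any 1 library other than indisulam replicate 3 was left out, with adjusted p up to 0.165. MRPS25 was 32.8 ± 6.195 TPM with indisulam and 56.1 ± 3.44 TPM with DMSO (n = 3 each; -0.77, limma adjusted p = 0.00874; 0.0553 without DMSO replicate 3). MRPL17 and MRPL27, which fell most with indisulam, had RIP ratios of -2.38 and -0.81. Across 77 members the RIP ratio had a Pearson's r of -0.036 with the indisulam difference and of -0.093 with the knockdown difference.

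The lowest ratio was that of MRPL33, at 2.28 FPKM with the RBM39 antibody and 117 FPKM with IgG (-5.17). MRPL53 was 5.403 FPKM with the RBM39 antibody and 91.2 FPKM with IgG (-3.85) and MRPL22, which lines the exit tunnel, 2.42 FPKM with the RBM39 antibody and 31.2 FPKM with IgG (-3.23). MRPS36 was listed at 0 with the RBM39 antibody and 6.89 FPKM with IgG. MRPS17 has 2 entries that go opposite ways, at 0 FPKM with the RBM39 antibody and 9.52 FPKM with IgG and at 6.61 FPKM with the RBM39 antibody and 0.0001 FPKM with IgG, so its value is uncertain. MRPL58 and MRPL57 stand in that table under the older symbols ICT1, at 14.0 FPKM with the RBM39 antibody and 35.8 FPKM with IgG (-1.30), and MRP63, at 3.597 FPKM with the RBM39 antibody and 14.8 FPKM with IgG (-1.79), and are not in the counts. Of other lists, 72 of 78 cytosolic ribosomal protein genes were at most -1, with a median of -2.36, and 11 of 17 mitochondrial synthetases were at least 1, with a median of 1.18. RBM39 itself was 62.1 FPKM with its antibody and 127 FPKM with IgG.

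**Figure D5:**
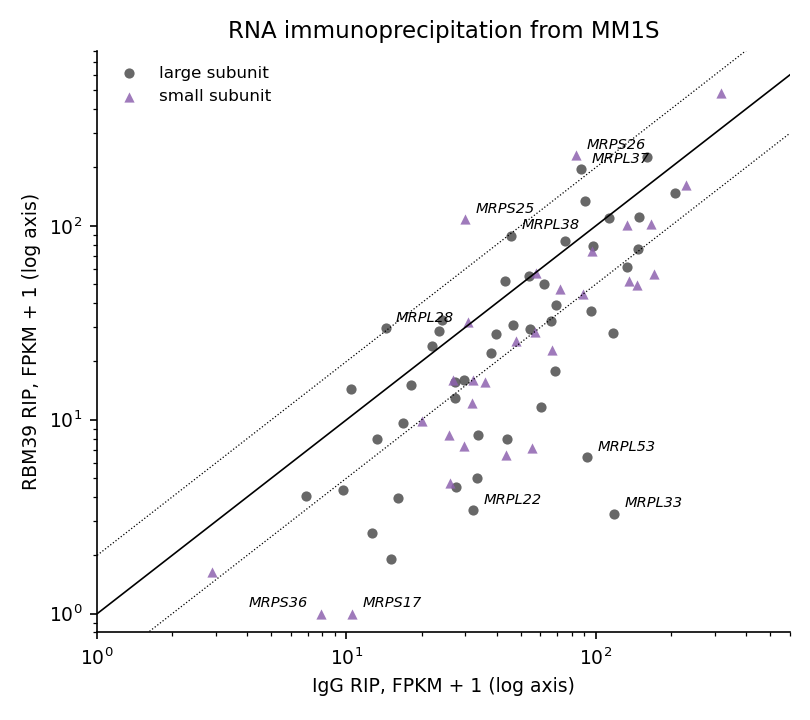
FPKM + 1 with the RBM39 antibody against FPKM + 1 with IgG, both on log axes, 1 library each; points are members by subunit, the solid line marks equal values and the dotted lines a log2 ratio of 1 and -1. More members lie below the lower dotted line (33) than above the upper one (4), and the named genes are the 5 highest and 5 lowest ratios.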

How the data were processed

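TRIzol RNA and a SMARTER mRNA library kit were used, per the labels' protocols, for RNA-seq and RIP. Aligner, counter and annotation are not named there. The submitters' processing notes name GRCm38 and mm10, which are mouse builds, for human cells and symbols, so no coordinate was taken from the deposited files. H929 and RIP values are FPKM as deposited by the authors. Both MM1S tables are named FPKM, but the deposited values are TPM: every column has the fixed total of that unit. The planned limma test was kept. MM1S rows without a gene name held 0.174% to 0.459% of TPM and were left out. A symbol listed more than once was represented by its entry with the highest mean (1533 further entries in each MM1S table).

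The members and the pathway lists were chosen with earlier results of these data known. Genes reaching 1 FPKM or TPM in at least the number of libraries of the smaller group were fitted with limma 3.58.1, with its trend and robust options, under R 4.3.3; the input was log2(value + 1), the test was two-sided and each table had its own fit, with Benjamini-Hochberg adjustment over all genes tested. The fit was tested on simulated data. The label "In" is taken to mean indisulam. Named were RBM39, up to 8 called members per direction with the largest differences, members called in both MM1S comparisons, members at the filter, the 5 highest and 5 lowest in RIP, members with well known roles, and up to 3 called genes per pathway list. Any other gene named was chosen after its values were seen. The alternatives were another pseudocount (0.1), other filters (none, or 5), other scalings (quantile, median), plain limma, repeated symbols summed, a replicate block and each library left out. Pseudogenes of these genes summed to 12.9 TPM in the indisulam table and 16.0 TPM in the knockdown table. Depth is unknown in MM1S and RIP, so no counting interval is given. Values of 1 gene of the pathway lists are not reported here.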

Additional observations from a re-analysis of the deposited data

Results flagged for a closer look

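The log2 difference of 3 members went opposite ways in the same nominal contrast in the 2 lines, with every library of a group on the same side. It was -0.30 for MRPL18, -0.33 for MRPS10 and -0.20 for MRPS9 in the H929 libraries labelled shRBM39 against those labelled scramble, and 0.98, 0.63 and 0.86 for the same genes in the MM1S knockdown. RBM39 itself was opposite as well, at 2.81 in H929 and -1.69 in MM1S. The difference between the lines was not tested, since the tables were normalized apart.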

How the results depend on the processing

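The counts given here moved with the setting named, and the cause was not tested. Calls over all genes also changed direction with scaling, as given above for H929 and indisulam. In H929 median scaling gave 30 higher and 5 lower in the large subunit, 9 higher and 6 lower in the small, and a member median of 0.13, and quantile normalization gave 8 higher and 6 lower in the small subunit and a median of 0.0873, both of the opposite sign to -0.04. With indisulam quantile normalization gave 2 higher and 15 lower in the large subunit, 3 higher and 4 lower in the small and a median of -0.20, and median scaling 0 higher and 15 lower in the large and 4 lower in the small. No filter on low values left 0 large subunit members higher with indisulam, and in the MM1S knockdown 0 genes of any kind, so 0 higher in the large and 0 in the small subunit. In that knockdown a filter at 5 called 2 large subunit members lower, and median scaling and quantile normalization 1 each. Plain limma called 0 large and 0 small subunit members higher with indisulam, and 1 large and 1 small higher in the knockdown. The median RIP ratio was -0.76 after median scaling.

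Same-numbered libraries share only a number: the correlations of their deviations from the group means were 0.129, -0.000441 and 0.0253 in H929, 0.138, -0.146 and -0.0241 with indisulam and -0.139 in the MM1S knockdown. With them as a replicate block the MM1S knockdown had 299 genes called and 0 members higher in the large and 0 in the small subunit, and indisulam 0 higher in the large and 0 in the small and 8 lower in the small. The knockdown numbers correlated negatively, and a crossed replicate block, chosen after seeing the data, gave 779 genes and 1 small subunit member higher. Leaving out 1 library gave 7024 to 7427 genes called in H929, with 14 to 17 large and 3 to 6 small subunit members higher, 11 to 15 and 10 to 15 lower and medians of -0.03 to -0.0055. With indisulam it gave 1849 to 9343 genes, 0 to 4 large and 0 to 3 small members higher, 13 to 36 and 2 to 21 lower and medians of -0.40 to -0.35. In the knockdown, where the lone library was assumed to vary like the other group, it gave 0 to 572 genes, 0 members higher in either subunit, 0 to 1 large members lower and medians of -0.0662 to 0.17. The median was negative without shRBM39 replicate 1 or scramble replicate 1. Depth is unknown in MM1S and RIP, and RIP has no replicates.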
